A study of Mus musculus with 221 samples.

Results

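Upf1, Upf2, Upf3b, Smg1, Smg5, Smg6, Casc3, Eif4a3 and Magoh encode proteins of nonsense-mediated mRNA decay (NMD) and of the exon junction complex. These 9 genes, of 78317 in the deposited tables, were found by symbol and comprise 45 of the 278369 transcripts counted. They were selected on gene levels and isoform fractions of the HE populations of the same cells, with earlier results known, so those values are given below as descriptions and carry no test.

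Splicing leaves an exon junction complex on the mRNA just upstream of each exon-exon junction, and the first ribosomes to translate the mRNA strip these complexes away. When a ribosome stops upstream of a complex that is still in place, the helicase UPF1, bound to the release factors, meets UPF2 and UPF3B on that complex and is phosphorylated by the kinase SMG1. Phosphorylated UPF1 recruits SMG6, which cuts the mRNA, and SMG5, which helps hand it to decapping and deadenylation. EIF4A3 clamps the complex on RNA, MAGOH and RBM8A lock that clamp, and CASC3 is a peripheral subunit. NMD removes mRNAs with premature stop codons and also tunes a set of normal mRNAs. In the mouse, loss of Upf2 is known to deplete hematopoietic stem and progenitor cells.

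The cells came from embryos of Gfi1-GFP and Runx1b-RFP reporter males (strain C57BL/6JOlaHsd) crossed to wild-type Hsd:ICR (CD-1) females, and received no treatment. Full-length Smart-seq2 cDNA of single sorted cells was sequenced again with nanopore long reads, and the authors deposited an estimated count of each transcript in each of 221 cells. Hemogenic endothelium (HE), the endothelium that gives rise to blood, was taken from the aorta-gonad-mesonephros region (AGM) or the yolk sac (YS). HEAGM joined clusters c3 (early) and c4 (late), sorted as RUNX1+ CDH5+ KIT- CD41- CD45- cells with or without GFI1 at E9.5 and E10.5; the day of a single AGM cell is not used here. HEYSA joined clusters a1 (early) and a2 (late) and HEYSP joined clusters b2 (early) and b3 (late), both sorted as RUNX1+ KIT+ CD31+ CD41- CD45- cells with or without GFI1 at E9, E9.5 and E10.5. The gates for KIT thus differed between AGM and YS. Further along were cluster c5, labelled HE-Hb, and the early YS progenitor clusters p1 (LMP skewed, lymphoid-myeloid) and p2 (EMP skewed, erythroid-myeloid). Cells of p1 were of E9.5 and E10.5, and those of p2 of E9, E9.5 and E10.5. No embryo or litter is named for any cell, so each population was 1 sample, and intervals are 95% intervals that cover counting error only.

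After the study's filter on library size 208 cells were kept. HEAGM held 49 cells with a median total of 59311 counts per cell, HEYSA 52 cells with 34483.5 and HEYSP 49 cells with 33297. Cluster c5 kept 21 cells, p1 kept 17 (2 of E9.5, 15 of E10.5) and p2 kept 20 (5 of E9, 9 of E9.5, 6 of E10.5). The ages of p1 and p2 thus differed. Summed levels of 5 endothelial markers (Cdh5, Pecam1, Kdr, Tek, Emcn) were 1132, 693 and 754 CPM (counts scaled to a total of 1000000) in HEAGM, HEYSA and HEYSP, and all 5 were detected in each. The YS arterial markers Vwf and Cd24a summed to 644, 261 and 13.2 CPM, and the plexus markers Lyve1 and Stab2 to 1.80, 108 and 1099 CPM, in the same order. Of 4 blood markers (Ptprc, Itga2b, Myb, Spi1) all were detected in HEAGM (summed level 320 CPM, cells from 0 to 1005), whereas Ptprc was at 0 in HEYSA (99.7 CPM, cells from 0 to 857) and HEYSP (111 CPM, cells from 0 to 436). Hemogenic markers (Runx1, Gfi1, Mycn, Neurl3) summed to 406, 380 and 149 CPM, erythroid globins to 188, 39.6 and 20.6 CPM with 1 HEAGM cell at 9759, and macrophage markers to 32.7, 17.8 and 54.4 CPM with Adgre1 and C1qa at 0. Mesenchyme, megakaryocyte and yolk sac endoderm markers reached at most 18.9, 44.3 and 2.40 CPM in these 3 populations; in c5 the mesenchyme list summed to 172 CPM, with 4 of its 5 markers (Col1a1, Col3a1, Pdgfra, Ptn) at 0. The part of these RNAs in the levels below was not tested. AGM and YS cells came from different cDNA projects, apart from 1 cell labelled a1, and 2 further YS cells have AGM in their library names. Tissue and cDNA project therefore cannot be told apart, while c3 with c4, and the YS clusters among themselves, can be compared largely within a project.

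Sequences that distinguish isoforms or copies of 3 members are shown first, because they set what a read can resolve. They were read from GENCODE M21 transcripts (GRCm38), which held all 45 transcripts at the same lengths, and capitals mark the segment that only 1 of 2 isoforms contains, with 30 bases on each side. For Upf1 the segment is 33 coding bases of Upf1-201 that Upf1-202 lacks (chr8:70339982-70340014, minus strand). For Eif4a3 it is a coding exon of 63 bases in Eif4a3-201 that Eif4a3-202 skips (chr11:119295473-119295535, minus strand). For Upf3b it is a coding exon of 39 bases in Upf3b-202 that Upf3b-201 lacks (chrX:37099066-37099104, minus strand).
Upf1-201: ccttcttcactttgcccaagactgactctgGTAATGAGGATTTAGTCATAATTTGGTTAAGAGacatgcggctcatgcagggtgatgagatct
Eif4a3-201: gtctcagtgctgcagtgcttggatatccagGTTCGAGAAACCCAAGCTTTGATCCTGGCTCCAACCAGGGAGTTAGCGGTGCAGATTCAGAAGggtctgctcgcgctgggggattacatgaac
Upf3b-202: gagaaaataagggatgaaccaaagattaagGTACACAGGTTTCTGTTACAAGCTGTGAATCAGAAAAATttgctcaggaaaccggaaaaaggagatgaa
Eif4a3 also has 2 near-identical copies elsewhere in the genome, Eif4a3l1 and Eif4a3l2. Over the 63 bases of the skipped exon both copies read alike, and the capital marks the single base at which they differ from Eif4a3.
Eif4a3l1-201 and Eif4a3l2-201: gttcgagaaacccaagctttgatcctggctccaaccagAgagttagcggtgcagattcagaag

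The helicase gene Upf1 (chr8:70331525-70353278, minus strand, 24 exons) had the widest gap between AGM and YS of the 9 genes against HEYSA. Its level was 134 CPM in HEAGM, 8.40 CPM in HEYSA and 7.78 CPM in HEYSP, from 445, 16 and 13 summed counts. At least 1 count was seen in 40 of 49 HEAGM cells, with a lowest cell of 0, a median of 114 and a highest of 509 CPM. In HEYSA 11 of 52 cells had a count and in HEYSP 9 of 49, and the median cell of both was at 0. The highest YS cells reached 83.4 and 115 CPM, so the highest HEYSP cell lay about level with the median HEAGM cell and the cell ranges overlapped. With each cell thinned to 15000 counts the share of cells with Upf1 was 73.5%, 7.69% and 6.12%, in the same order. The summed level was 15.5-fold higher in HEAGM than in HEYSA (log2 ratio 3.95, interval 3.28 to 4.81, with 0.5 counts added to each sum) and 16.6-fold higher than in HEYSP (4.05, interval 3.31 to 5.02).

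Both HEAGM clusters carried it, at 128 CPM in c3 and 142 CPM in c4, as did c5 at 122 CPM, with counts in 21 of 29, 19 of 20 and 19 of 21 cells. The intervals of these 3 levels overlapped (112 to 145, 123 to 163 and 104.9 to 141 CPM). The 4 YS clusters lay between 4.76 CPM (a1) and 11.3 CPM (a2). No count was found in the 17 p1 cells (upper interval limit 5.62 CPM), and all 9 counts of p2 were in 1 E10.5 cell. In every nanopore run HEAGM was above both YS populations, by log2 ratios of 3.05, 4.88 and 4.64 against HEYSA and 3.40, 3.55 and 4.83 against HEYSP. Among c3 cells the level was 133 CPM in the 23 cells of the main AGM cDNA project and 107 CPM in 6 cells of others, where 2 of the 6 cells had all the counts. The 1 a1 cell prepared in an AGM project had 1 count (38.6 CPM), and the 2 YS cells with AGM in their library names had none. The 3′ end of Upf1 overlaps Cers1 and Gdf1 on the other strand by 68 and 63 exonic bases, so a part of its reads could belong to them.

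The bridging factor UPF2 gave few counts. Upf2 (chr2:5951469-6056703, plus strand) was at 6.31 CPM in HEAGM, 6.30 CPM in HEYSA and 10.2 CPM in HEYSP, from 21, 12 and 17 counts in 9, 3 and 2 cells. In HEYSP 1 cell held 64.7% of them. The log2 ratio of HEAGM was -0.02 against HEYSA (interval -1.09 to 1.16) and -0.70 against HEYSP (interval -1.68 to 0.32). Both intervals end below those of the Upf1 ratios.

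Upf3b (chrX:37091678-37110322, minus strand), the X-linked gene of the factor that ties UPF2 to the exon junction complex, differed between the YS populations through cluster a2. It was at 24.3 CPM in HEAGM (81 counts, 18 of 49 cells, highest cell 140 CPM) and at 9.97 CPM in HEYSA (19 counts, 7 of 52 cells, highest cell 140 CPM). In HEYSP it had 2 counts in 2 of 49 cells (1.20 CPM). The median cell was at 0 in all 3 populations. The log2 ratio of HEAGM was 1.26 against HEYSA (interval 0.55 to 2.09) and 4.03 against HEYSP (interval 2.45 to 7.42), and that of HEYSP to HEYSA was -2.77 (interval -6.21 to -1.01). Within HEYSA 18 of the 19 counts were in a2 and 7 of them in 1 cell. Clusters a1, b2 and b3 had 1 count each. Between the early clusters b2 and a1 the log2 ratio of HEYSP to HEYSA was -0.02. The ratio of HEAGM to HEYSA was 4.18 between the early clusters c3 (32.0 CPM) and a1 (1.19 CPM), and -0.31 between the late clusters c4 (13.7 CPM) and a2 (16.9 CPM). Its paralog Upf3a had 15 counts in HEAGM and none in either YS population.

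The kinase gene Smg1 (chr7:118131308-118243670, minus strand, 63 exons) was at 33.3 CPM in HEAGM (111 counts, 24 of 49 cells), 24.7 CPM in HEYSA (47 counts, 14 of 52 cells) and 17.3 CPM in HEYSP (29 counts, 8 of 49 cells). The log2 ratio of HEAGM was 0.43 against HEYSA (interval -0.07 to 0.96) and 0.92 against HEYSP (interval 0.34 to 1.59). With protein coding transcripts only these ratios were 1.26 and 1.67, above both intervals. The early cluster was above the late one in both HEAGM (41.8 against 21.6 CPM) and HEYSA (41.6 against 11.3 CPM), whereas b2 and b3 were at 17.6 and 17.1 CPM. In a1, 15 of the 35 counts were of Smg1-204 (described with the isoforms below), from 3 cells, against 1 of 12 in a2. Smg1-201 had 11 counts in a1 and 7 in a2.

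Smg5 (chr3:88336260-88362338, plus strand), whose product recruits decay enzymes to UPF1, lay over all its isoforms at like levels in HEAGM and HEYSA and lower in HEYSP. Its level was 39.3 CPM in HEAGM (131 counts, 23 of 49 cells, highest cell 255 CPM) and 42.0 CPM in HEYSA (80 counts, 18 of 52 cells, highest cell 202 CPM). It was 10.2 CPM in HEYSP (17 counts, 13 of 49 cells, highest cell 90.5 CPM). The share of cells with a count was 34.6% in HEYSA and 26.5% in HEYSP, with overlapping intervals (21.97 to 49.1 and 14.95 to 41.1), so the gap was wider in counts than in positive cells. HEAGM differed from HEYSA by a log2 ratio of -0.10 (interval -0.51 to 0.33) and from HEYSP by 1.92 (interval 1.22 to 2.77). HEYSP was 4.04-fold below HEYSA (log2 ratio -2.01, interval -2.89 to -1.28), and by -1.79, -1.29 and -2.63 in the 3 runs. Both populations are YS cells; the a1 cell of an AGM project had no Smg5 count and the 2 YS cells with AGM in their library names had 2 counts, both in 1 cell, and without these 3 cells the ratio was -2.05. At E10.5 alone the levels were 48.8 CPM in HEYSA (35 cells) and 7.20 CPM in HEYSP (20 cells). All these values sum the isoforms of Smg5. The coding isoform Smg5-201 held 127 of the 131 counts in HEAGM, 47 of the 80 in HEYSA and 13 of the 17 in HEYSP.

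The endonuclease gene Smg6 (chr11:74925823-75164448, plus strand) was at 17.1 CPM in HEAGM (57 counts, 13 of 49 cells), 5.25 CPM in HEYSA (10 counts, 5 of 52 cells) and 3.59 CPM in HEYSP (6 counts, 3 of 49 cells). Its log2 ratios of 1.65 (interval 0.72 to 2.84) and 2.15 (interval 1.04 to 3.76) turned to -0.96 and -1.52 in run 1 alone. In c4 1 cell held 16 of the 36 counts. A part of its exons, 117 and 126 bases, lies opposite Gm12333 and Srr, and the counting is not stated to use strand.

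Of the exon junction complex, the peripheral subunit gene Casc3 (chr11:98804905-98833814, plus strand) was higher in HEAGM and the core subunit genes Eif4a3 and Magoh were nearly level. Casc3 was at 48.7 CPM in HEAGM (162 counts, 29 of 49 cells, median cell 21.1 and highest 151 CPM). It was at 9.97 CPM in HEYSA (19 counts, 8 of 52 cells, highest cell 151 CPM) and 7.78 CPM in HEYSP (13 counts, 6 of 49 cells, highest cell 205 CPM), with median cells at 0. More HEAGM cells had it, while the highest single cell of these populations was of HEYSP, with 4 counts in a total of 19517. A c5 cell reached 262 CPM. HEAGM was 4.77-fold above HEYSA (log2 ratio 2.25, interval 1.60 to 3.06) and 6.04-fold above HEYSP (2.60, interval 1.83 to 3.59). By run the ratios were 3.46, 1.67 and 1.82, and 2.70, 0.65 and 4.08. Within HEYSA the level was 28.9 CPM at E9.5 (14 counts, interval 15.8 to 48.5) and 3.70 CPM at E10.5 (5 counts, interval 1.20 to 8.63), and the ratio against HEYSA was 3.58 with E10.5 YS cells only. Casc3 shares 494 exonic bases with the antisense gene Gm12359, whose reads cannot be told apart from its own without strand.

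Magoh (chr4:107879755-107887424, plus strand) was the most widely detected member, in 48 of 49 HEAGM, 48 of 52 HEYSA and 42 of 49 HEYSP cells. Its level was 249.6 CPM in HEAGM (median cell 249, highest 643), 225 CPM in HEYSA (median cell 206, highest 726) and 193 CPM in HEYSP (median cell 165, highest 827). The log2 ratio of HEAGM was 0.15 against HEYSA (interval -0.02 to 0.32) and 0.37 against HEYSP (interval 0.19 to 0.56). Levels were 284 CPM in c5, 311 CPM in p1 and 283 CPM in p2, where Upf1 was at 122, 0 and 12.3 CPM. Its paralog Magohb added 26.7, 31.5 and 18.5 CPM in HEAGM, HEYSA and HEYSP, and Magoh gave 90.3%, 87.7% and 91.2% of the sum of both.

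Eif4a3 (chr11:119288363-119300089, minus strand), the gene of the helicase that anchors the complex, was at 69.2 CPM in HEAGM, 53.1 CPM in HEYSA and 59.0 CPM in HEYSP, with median cells at 34.0, 26.99 and 42.6 CPM. The log2 ratio of HEAGM was 0.38 against HEYSA (interval 0.04 to 0.73) and 0.23 against HEYSP (interval -0.12 to 0.58). These levels depend on how reads were divided with the copies. Of the 1233 coding bases of Eif4a3-201, Eif4a3l1-201 matches 1186 and Eif4a3l2-201 matches 1193, and the summed Eif4a3 count was a whole number (within 1e-06) in 1 of the 47 HEAGM cells with any and in none of the 48 HEYSA and 46 HEYSP cells. Eif4a3l1 was listed at 37.9 CPM in HEAGM, 151 CPM in HEYSA and 143 CPM in HEYSP, and Eif4a3l2 at 146, 139 and 136 CPM. Eif4a3 therefore made up 27.3%, 15.5% and 17.4% of the 3 genes together, whose sums were 253, 343 and 338 CPM. The sum was lower in HEAGM than in both YS populations, the reverse of the order for Eif4a3 alone.

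**Figure D1:**
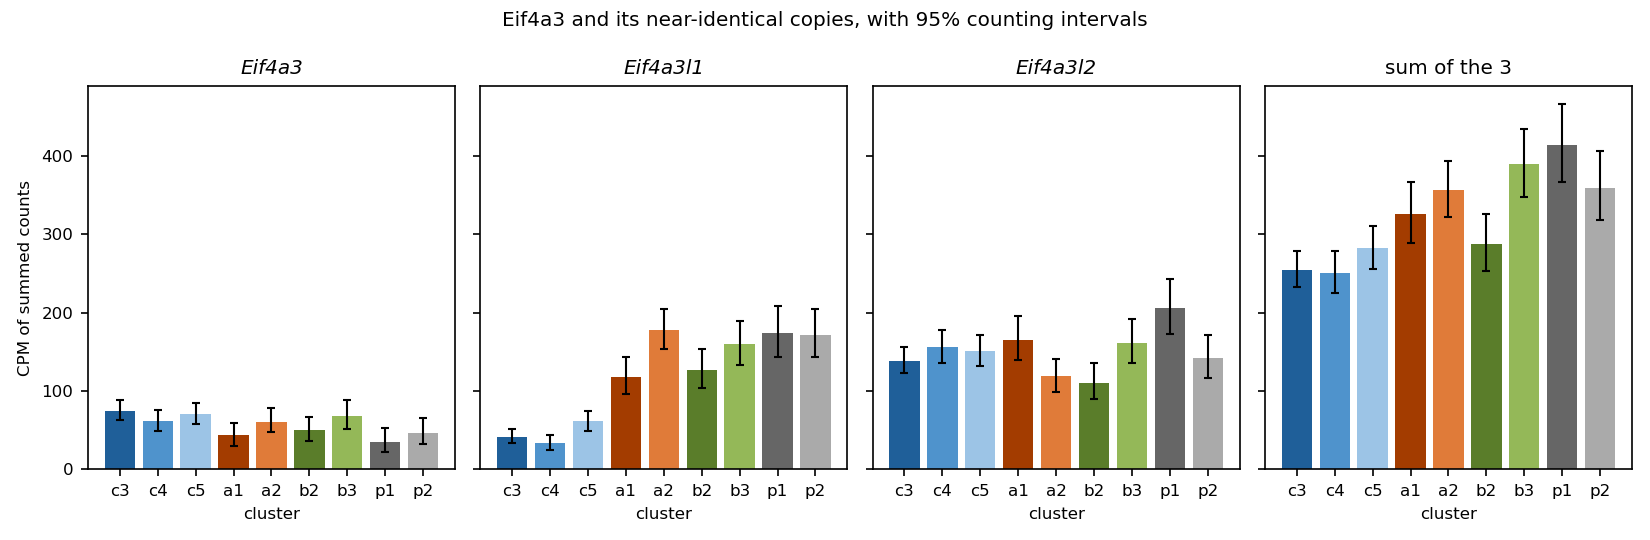
CPM (linear axis) of Eif4a3, its copies Eif4a3l1 and Eif4a3l2, and the sum of the 3 in the 9 clusters; bars are summed levels and whiskers 95% Poisson intervals that cover counting error only. The Eif4a3l1 bars of the AGM clusters lie below those of all YS clusters (37.9 CPM in c3 with c4, 151 CPM in a1 with a2), while the Eif4a3 and Eif4a3l2 bars of AGM and YS overlap.

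The number of members with at least 1 count in a cell had a median of 5 in HEAGM, 3 in HEYSA, 2 in HEYSP, 6 in c5, and 2 in both p1 and p2. After thinning to equal depth the medians were 3, 2, 2, 3, 2 and 2. Fewer cells with an RNA and less RNA per cell cannot be fully separated at this depth, since a missing count does not show that a cell lacked the transcript.

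**Figure D2:**
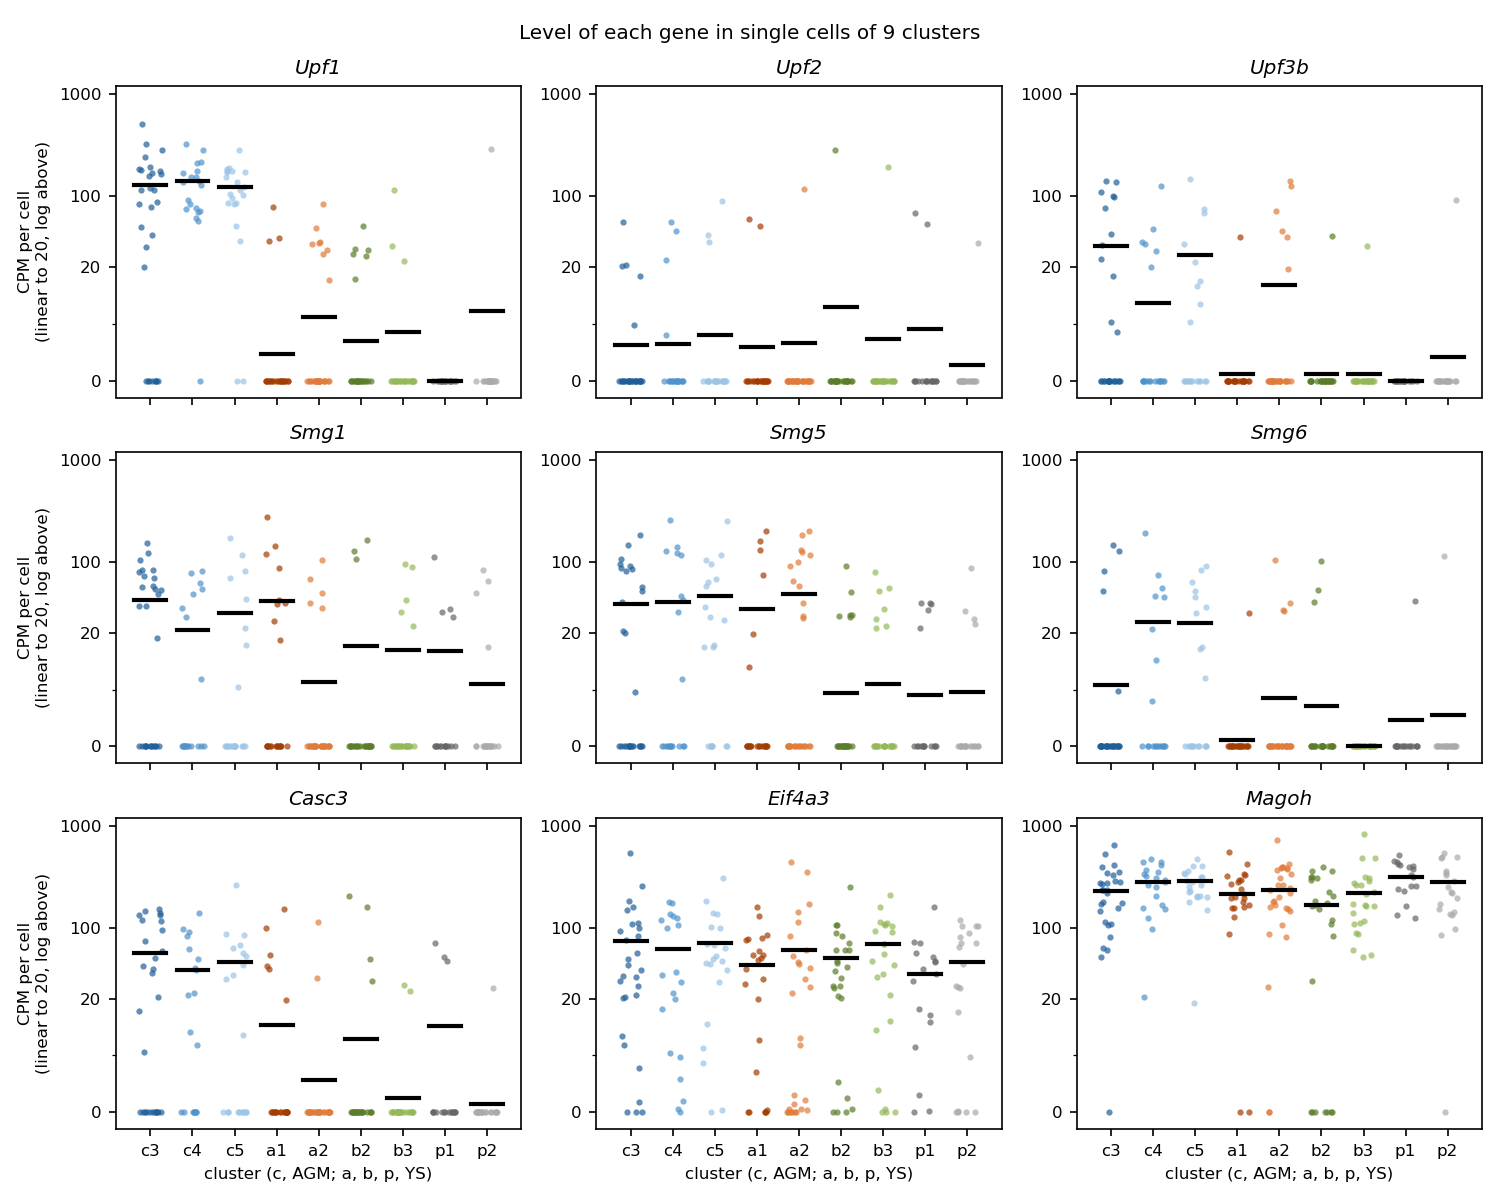
Level of each member in single cells (dots) and over the summed cells (black bars) of the 9 clusters, in CPM on an axis that is linear to 20 and logarithmic above. Upf1 bars stand at 128, 142 and 122 CPM in c3, c4 and c5 and at 12.3 CPM or less in the YS clusters, most of whose cells are at 0. Magoh bars stand between 166 CPM in b2 (18 of 25 cells with a count) and 311 CPM in p1 (17 of 17 cells).

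Set beside all genes, a log2 ratio of at least 1.5 in either direction was taken as past the fold, and genes with at least 100 summed counts in the pair formed the background. For HEAGM against HEYSA, 7 members met that minimum, and 2 of the 7, Upf1 and Casc3, were past the fold as higher in HEAGM, against a background of 15.2% (984 of 6471 genes). None was past it as lower, against 4.53%. For HEAGM against HEYSP, 6 members met the minimum and 3 of them, Upf1, Smg5 and Casc3, were past the fold as higher, against 17.9% (1137 of 6344 genes), and none as lower, against 6.08%. Over all 9 members 3 and 5 were past the fold, the others being Smg6 in both pairs and Upf3b against HEYSP, each under the minimum. The median log2 ratio over the 9 members was 0.43 and 1.92, beside 0.16 and 0.19 over all genes. Both pairs share the HEAGM cells, and the choice of members used these contrasts, so nothing is read from these counts.

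**Figure D3:**
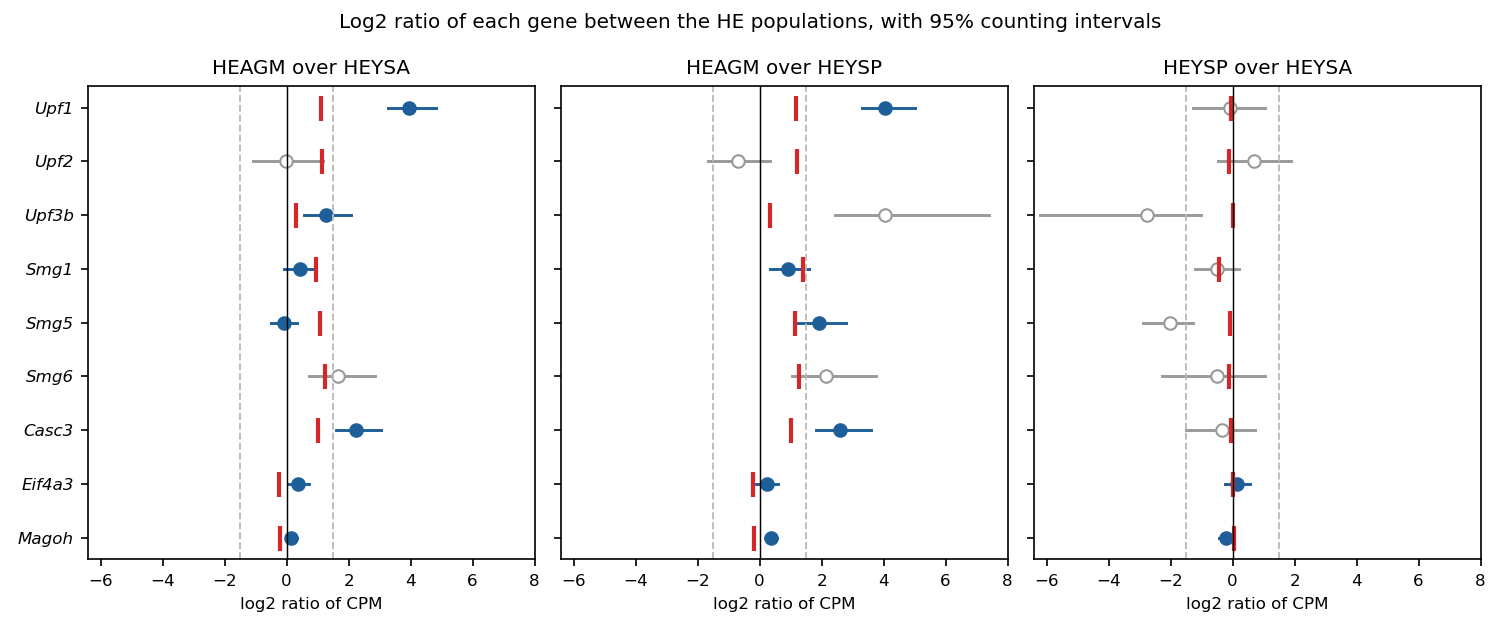
Log2 ratio of CPM for each member in the 3 pairs of HE populations, with 95% intervals that cover counting error only; grey open points had under 100 summed counts, red ticks mark the median of genes of similar length, and dashed lines mark 1.5 in either direction. Upf1 lies at 3.95 and 4.05 in the AGM to YS panels and at -0.10 between the YS populations.

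Transcript length moved with the AGM to YS ratio. Over all genes the median log2 ratio of HEAGM to HEYSA was -0.15 for leading transcripts under 500 bases, -0.37 from 1000 to 1500 bases, 0.38 from 2000 to 3000 bases and 1.22 from 6000 bases. The mean transcript length per count was 1507 bases in HEAGM, 1169 in HEYSA and 1162 in HEYSP, and transcripts of 3000 bases or more took 12.6%, 5.79% and 5.58% of counts. The leading transcripts of Upf1, Smg5, Casc3, Smg6, Upf2 and Smg1 have 4618, 4448, 3963, 5848, 5174 and 15557 bases, those of Eif4a3 and Magoh 1509 and 692. Genes within 0.8 to 1.25 times the length of Upf1 had medians of 1.10 against HEYSA and 1.16 against HEYSP, with 31.6% and 39.2% of them past the fold as higher, and Upf1 lay above 99.3% and 97.1% of these genes. Casc3 lay above 91.7% and 91.4% of genes of its length, whose medians were 1.01 and 1.00. Smg5 lay above 7.12% of them against HEYSA and 75.2% against HEYSP (medians 1.08 and 1.16), and Upf2 above 7.78% and 1.86%. Between HEYSP and HEYSA the median for genes of the length of Smg5 was -0.07. The part of length in the members' ratios was not tested.

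**Figure D4:**
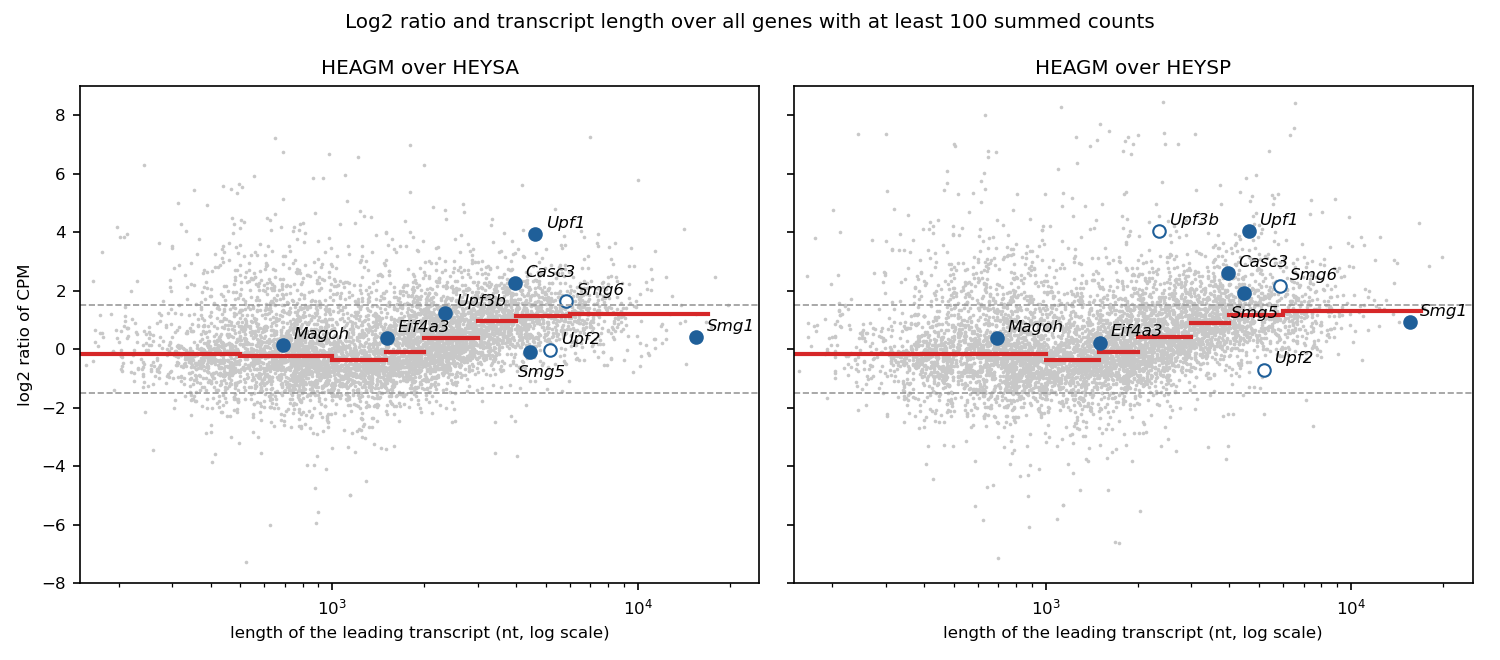
Log2 ratio of HEAGM to HEYSA (left) and to HEYSP (right) against the length of each gene's leading transcript in bases (logarithmic axis); grey points are all genes with at least 100 summed counts, red lines the median per length class, labelled points the members, and open circles members under 100 counts. On the left the median is -0.37 from 1000 to 1500 bases and 1.22 from 6000 bases; Upf1 lies above the red line in both panels, Upf2 below it in both, and Smg5 below it on the left only.

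Within the YS, only Eif4a3 and Magoh met the minimum of counts for HEYSP against HEYSA, and neither passed the fold, against a background of 3.48% in either direction; the values were 0.15 and -0.22. Over all 9 members Upf3b and Smg5 were past it, both lower in HEYSP. From early to late HE, no member that met the minimum passed the fold: 0 of 6 for c4 against c3 (background 4.80%), 0 of 2 for a2 against a1 (2.45%) and 0 of 1 for b3 against b2 (4.31%). The log2 ratios of c4 to c3 ran from -1.20 (Upf3b, interval -2.05 to -0.47) to 1.24 (Smg6, interval 0.44 to 2.11), and that of Magoh was 0.27. Under the minimum, Upf3b was 3.28 (18 against 1 counts, interval 1.17 to 9.21) and Smg1 -1.85 (12 against 35 counts, interval -2.97 to -0.91) for a2 against a1. For b3 against b2, Casc3 was -2.15 (2 against 11 counts, interval -5.62 to -0.21). Smg6, with 0 against 6 counts, was 1.93-fold lower with the 0 set to a floor of 3. The upper interval limit of its log2 ratio was -0.18.

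From HE to the cells further along, c5 kept levels near those of c4. None of the 5 members with enough counts passed the fold (background 4.85%), and the ratios ran from -0.22 (Upf1) to 0.94 (Upf3b, 40 against 19 counts). In the YS only Magoh met the minimum, at 0.42 for p1 against a2 (background 4.50%), 0.36 for p2 against b3 (2.41%) and 0.14 for p1 against p2 (1.09%). With the 0 counts of p1 set to a floor of 3, Upf1 (12 counts in a2) was 2.47-fold lower and Upf3b (18 counts in a2) 3.70-fold lower. The upper interval limits of these log2 ratios were -0.78 and -1.44. Smg5 was at -2.29 for p1 against a2 (6 against 51 counts, interval -3.90 to -1.17) and -0.18 for p2 against b3. Casc3 had 10 counts in p1 and 1 in p2 (log2 ratio 2.97, interval 0.67 to 8.92).

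Isoform fractions are shares of a gene's summed counts, and a gene was past the limit where any isoform differed by over 10 percentage points. Of the 3 members with at least 50 counts in both HEAGM and HEYSA, Smg5 and Eif4a3 were past it, against a background of 58.7%. Of the 2 with enough counts in HEAGM and HEYSP, Eif4a3 was past it, against 56.0%, and of the same 2 in HEYSP and HEYSA neither was, against 25.3%. More than 1 in 2 genes tested passed this limit between AGM and YS.

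Eif4a3-202, which skips the exon printed above and has 916 bases, made up 20.05% of Eif4a3 in HEAGM (interval 15.03 to 25.8), 62.2% in HEYSA (interval 52.2 to 71.8) and 61.7% in HEYSP (interval 51.3 to 71.2). It was 19.8% in c5, 84.8% in p1 and 78.2% in p2. By run it was 19.4%, 20.4% and 20.3% in HEAGM, 57.4%, 75.1% and 63.1% in HEYSA, and 79.2%, 61.3% and 49.9% in HEYSP. The lowest YS run value was thus above the highest AGM one. Within HEYSA it was 93.7% in a1 and 44.5% in a2, where it was 60.7% without the 1 cell with most Eif4a3 counts. The full-length coding isoform Eif4a3-201 took 75.8%, 35.8% and 36.2%. Eif4a3-202 is annotated to stop at base 1054 of Eif4a3-201, 455 bases before its end, and only 12.2%, 35.6% and 40.6% of Eif4a3 counts were whole values. The fraction therefore depends on reads divided by the authors' software among isoforms and copies that differ at 1 of the 63 bases of this exon. Keeping only whole values drops each read split among isoforms or copies, which left under 50 Eif4a3 counts in each of HEAGM, HEYSA and HEYSP. The largest difference of an Eif4a3 isoform was then 2.78 points between HEAGM and HEYSA and 5.0 points between HEAGM and HEYSP. Both are under the limit of 10, but without the split reads they cannot show whether the difference in Eif4a3-202 holds.

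Smg5-201, the coding isoform, made up 96.9% of Smg5 in HEAGM (131 counts), 58.8% in HEYSA (80 counts) and 76.5% in HEYSP (17 counts). In HEYSA the isoforms Smg5-203 and Smg5-204, annotated as retaining an intron, made up 22.5% and 16.2%. They rested on few cells, since the 18 counts of Smg5-203 came from 4 cells and 11 of the 13 counts of Smg5-204 from 1 cell. Smg1, with under 50 counts in each YS population, showed Smg1-201 at 88.3%, 38.3% and 48.3%, and the isoform Smg1-204, annotated as itself a target of NMD, at 2.70%, 34.0% and 48.3%. Those fractions came from 3 counts in 1 cell, 16 in 4 cells and 14 in 3 cells. Upf3b-202, the isoform with the exon of 39 bases, made up 13.6% of 81 counts in HEAGM and 5.26% of 19 in HEYSA. Magoh-201 took 95.2%, 95.3% and 92.3%.

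For 4 members the leading isoforms could not be separated. Upf1-201 and Upf1-202 had equal values (within 1e-06) in all 80 cells with either, and so did Smg6-201 with Smg6-202 (33 cells), Casc3-201 with Casc3-204 (56 cells) and Upf2-201 with Upf2-202 (20 cells). Upf1-201 and Upf1-202 share their last 3258 bases, downstream of the 33 printed above. Fractions of 50% for these genes are a division by the software and not a measurement.

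**Figure D5:**
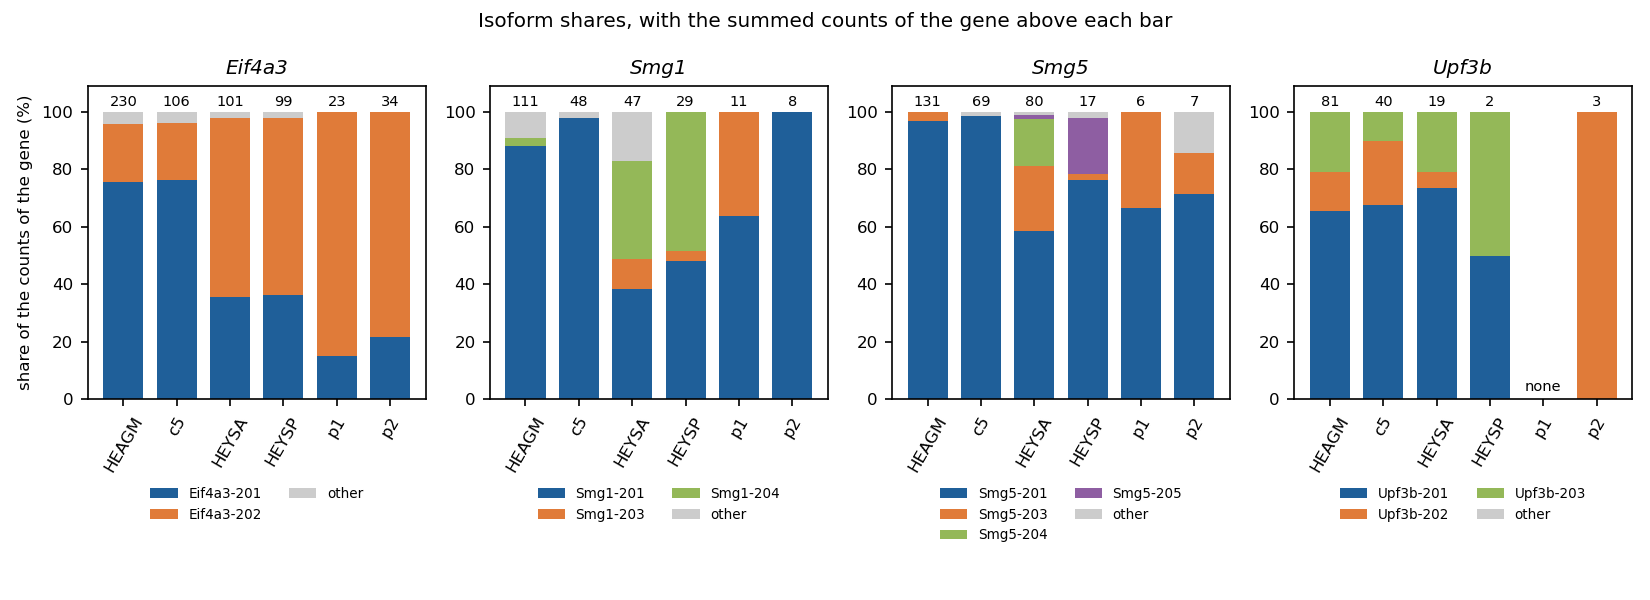
Isoform fractions of Eif4a3, Smg1, Smg5 and Upf3b in percent of the gene's summed count in 6 populations, with that count above each bar; p1 had no Upf3b count. Eif4a3-202 is 20.05% in HEAGM against 62.2% and 61.7% in HEYSA and HEYSP, and Smg5-201 is 96.9% against 58.8% and 76.5%.

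Other genes of the pathway were taken from lists set by function; the background shares past the fold were those given above, 15.2% as higher and 4.53% as lower against HEYSA, and 17.9% and 6.08% against HEYSP. Of 14 partners of the exon junction complex, 11 met the minimum for HEAGM against HEYSA, with 2 past the fold as higher and 1 as lower (median -0.05), and 10 against HEYSP, again with 2 and 1 (median 0.23), and nothing particular to the list is read from these counts. The 2 were Rbm8a, whose product pairs with MAGOH, and Alyref, an mRNA export adaptor, and the 1 lower was Pnn, a peripheral splicing partner. Rbm8a was at 100.9 CPM in HEAGM (43 of 49 cells), 18.02 CPM in HEYSA (24 of 52) and 20.3 CPM in HEYSP (23 of 49), with log2 ratios of 2.47 (interval 1.99 to 3.05) and 2.29 (interval 1.80 to 2.87) and positive ratios in every run. A transcript of 560 bases annotated as retaining an intron, Rbm8a-204, took 87.2%, 58.3% and 55.9% of its counts, and the coding isoforms Rbm8a-201, Rbm8a-202, Rbm8a-203 and Rbm8a-206 had 2.25 counts each in HEAGM. Alyref had ratios of 2.71 and 2.92, and Pnn of -2.002 and -2.31. Rbm8a and Magoh thus had unlike ratios although their proteins form 1 pair.

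Among 11 further NMD factors, 7 met the minimum for HEAGM against HEYSA, with none past the fold as higher and 1 as lower (Secisbp2, a selenocysteine insertion factor, -1.54). Their median was 0.61. Smg8 and Smg9, which regulate SMG1, were at 1.90 (68 against 10 counts) and 1.02 against HEYSA and 0.68 and 1.44 against HEYSP. Of 6 release and cap-side factors 4 met the minimum in each pair and 2 were past the fold, the release factor gene Etf1 (2.04 and 2.35) and the poly(A)-binding protein gene Pabpc1 (2.48 and 2.57). Of 10 decapping and decay genes, 0 of 7 and 1 of 6 were past it, the 1 being the decapping enzyme gene Dcp2 at 1.78. These lists had medians of 1.75 and 1.78, and 0.70 and 0.97.

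Of 11 RNAs known to be turned over by NMD, 6 met the minimum in each AGM to YS pair, with none past the fold against HEYSA (median 0.39) and 1 as higher against HEYSP (median 0.83). That 1 was Tbl2, an endoplasmic reticulum protein gene, at 187 counts in HEAGM, 91 in HEYSA and 10 in HEYSP (log2 ratio 3.16 against HEYSP). It was also the 1 of 5 past the fold between HEYSP and HEYSA, at -2.93, against a background of 3.48% in either direction. Atf4, a stress transcription factor with upstream reading frames, was at 95.5, 128 and 162 CPM. It alone of the 6 was lower in HEAGM in both pairs, and the rest were higher in both.

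Over the 9 clusters the genes with profiles most like Upf1, by Pearson correlation of log2(CPM + 10) among 1863 genes with at least 1000 counts, were 4930539M17Rik, Rplp1 and Nono, each with r = 0.98. In all 52 genes had r over 0.95, and the clusters of a tissue share cDNA projects and depth. For Upf2, the member with the lowest mean ratio, the nearest were Arrdc1 (r = 0.85), Rabac1 (0.80) and Tpp1 (0.78), on few counts.

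The promoters of Upf1, with the widest ratio, and Magoh, nearly level, are shown for contrast as the 250 bases upstream of the RefSeq start (GRCm38.p6), at chr8:70353280-70353529 on the minus strand and chr4:107879505-107879754 on the plus strand, with GC boxes (GGGCGG on either strand) in capitals.
Upf1: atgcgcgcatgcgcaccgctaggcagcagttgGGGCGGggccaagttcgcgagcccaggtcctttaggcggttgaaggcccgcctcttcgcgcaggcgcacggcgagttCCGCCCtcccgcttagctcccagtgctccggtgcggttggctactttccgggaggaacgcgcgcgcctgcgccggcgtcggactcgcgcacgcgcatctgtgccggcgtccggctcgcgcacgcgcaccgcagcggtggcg
Magoh: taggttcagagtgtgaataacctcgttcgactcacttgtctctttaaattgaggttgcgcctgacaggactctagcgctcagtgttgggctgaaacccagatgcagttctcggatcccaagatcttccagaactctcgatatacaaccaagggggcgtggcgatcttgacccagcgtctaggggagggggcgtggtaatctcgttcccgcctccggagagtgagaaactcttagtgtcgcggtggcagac
Of the 8 members with an entry, 6 held a GC box (Eif4a3, Smg1, Smg6, Upf1, Upf2 and Upf3b), beside 32.7% of 32851 promoters. CACGTG, the E-box of MYC family proteins, TGTGGT, a RUNX motif, and ACTTCCGG, an ETS motif, were searched on both strands and occurred in 0 of the 8, beside 6.02%, 14.05% and 2.88% of all promoters.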

How the data were processed

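Single mouse cells of 9 clusters, named from the sample labels, were analysed. The authors basecalled nanopore reads with Dorado, trimmed them with bbduk, discarded chimeras (YACRD, porechop), mapped the rest to the GENCODE transcriptome (release 37 as stated) by minimap2 2.26, keeping at most 10 alignments per read, and then ran NanoCount. Its estimated counts, as deposited, carry no normalization, and reads that fit several transcripts are divided among them, which can move counts between isoforms and gene copies. The deposited TPM values rescale those estimates within a cell, with no correction for length; they were used only as an alternative.

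Cells with fewer than 17595 counts (1 scaled median absolute deviation below the median total) were left out, as in the study. The kept totals ran from 18131 to 125339. Transcripts of a gene were summed, then cells of a population, and levels are CPM of that sum (scaled to a total of 1000000), so that deeper cells weigh more. Ratios had 0.5 counts added to each sum, and a population without counts was set to a floor of 3. Intervals (exact Poisson, Clopper-Pearson or conditional binomial) are 95% and cover counting error only; PCR copies were not marked by molecular identifiers. Counts were rounded for intervals and thinning. Neither tests nor standard errors were computed, because each population is 1 sample; the calculation was checked on simulated counts. A fold limit of 1.5 (log2) and an isoform limit of 10 percentage points follow the study.

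The members, the pathway and marker lists and the motifs were chosen with earlier results of these data known. Beyond the members the text names pathway genes past the fold in a comparison with HEAGM or in a complex with a member, near-identical copies, and isoforms with at least 10% of a gene in an HE population; Upf3b-202, Gm12359, Gm12333, Srr, Cers1, Gdf1 and Atf4 were added for their sequence, position or level. A result on 1 listed gene is not reported here. Transcript sequences and gene positions came from GENCODE M21 (GRCm38), matched by identifier and length, and promoters from RefSeq (GRCm38.p6). Alternatives covered the library-size limit, equal weight per cell, thinning, TPM, DESeq2 size factors, the minimum of counts, the limits, whole values, coding isoforms, runs, clusters, day and projects. Size factors came from DESeq2 1.42.0 in R 4.3.3 and all else from Python 3.11.15 (pandas 2.3.3, scipy 1.17.1, numpy 2.4.6, with figures by matplotlib 3.10.9).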

Additional observations from a re-analysis of the deposited data

How the results depend on the processing

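Of 522 log2 ratios of the members recomputed under alternatives, 457 stayed within the counting interval of the reported value, 63 left it and 2 that had been past the fold changed sign: Smg6 in run 1 alone, at -0.96 against HEYSA and -1.52 against HEYSP, with 1.65 and 2.15 in all cells. Among ratios under the fold 43 recomputed values had the other sign. Among them was Upf3b at -0.31 against HEYSA in the late clusters (reported 1.26). With whole values only, Eif4a3 was at -1.16 and Magoh at -0.95 against HEYSA (reported 0.38 and 0.15). The cause of these was not tested. Upf2 was at 2.05 against HEYSP in run 2 (reported -0.70), from 3 counts in HEAGM and 0 in HEYSP. The size of that ratio is set by the small count added to each sum, so no reversal is read from it. Of 105 largest isoform differences 78 moved by less than their interval and 27 by more. The log2 ratio of Upf1 ran from 3.05 to 4.88 against HEYSA and from 3.28 to 7.22 against HEYSP. The 7.22 came with whole values only, where HEYSP had no Upf1 count left. It was computed without the floor, so its size is set by the small count added to each sum and is not a measured upper end. Members past the fold as higher in HEAGM than HEYSA were 2 of 7, and became 1 of 2 after thinning, 1 of 5 with whole values only, 1 of 3 in run 1, 0 of 1 in run 2 and 1 of 4 in the late clusters. Against HEYSP they were 3 of 6, and became 1 of 3 after thinning, 1 of 2 in run 1, 0 of 1 in run 2, 1 of 3 in the late clusters, 5 of 8 with at least 50 summed counts and 5 of 9 with no minimum. For HEYSP against HEYSA the count of 0 of 2 became 1 of 4 with at least 50 counts and 2 of 9 with no minimum. No member that met the minimum was past the fold as lower in HEAGM under any of the alternatives run. Subsets of cells leave fewer members above the minimum by construction, and keeping whole values drops each read split between tied isoforms. Members past the isoform limit were 2 of 3 between HEAGM and HEYSA, and became 1 of 2 with whole values or coding isoforms and 0 of 1 after thinning, in each of runs 1, 2 and 3 and in the early clusters. Between HEAGM and HEYSP 1 of 2 became 2 of 3 with at least 20 counts. It became 0 after thinning, with whole values, in each run, in the early clusters and with E10.5 YS cells only. With whole values, in the runs, the early clusters and the E10.5 YS set, Eif4a3 had under 50 HEYSP counts and was not tested. Between HEYSP and HEYSA 0 of 2 became 1 with at least 20 counts (Smg1) and 1 in the late clusters (Eif4a3). No paired analysis was possible because no embryo is named for any cell and no test was run. Depth limits the YS values: Upf1, Upf2, Upf3b, Smg6 and Casc3 had 2 to 19 counts in each YS population.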
